A study of Mus musculus with 12 samples.

Results

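The mouse collagen gene family was followed in the left ventricle (LV) of adult offspring that differed in Hif1a genotype and in the diabetic state of the mother. Its members were the protein-coding genes whose symbol consists of Col, a number, the letter a and a second number, which gave 44 of the 46983 genes in the count files. They fell into 11 fibrillar genes, 6 basement membrane genes and 27 other genes. Of the 44 genes, 34 were measured, which meant at least 10 counts in 3 or more of the 12 samples, and these were 8 fibrillar, 6 basement membrane and 20 other genes.

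Collagens are trimers of alpha chains wound into a triple helix, and each gene encodes 1 kind of chain. Fibrillar collagens form the load-bearing fibrils between cardiomyocytes and are made mainly by cardiac fibroblasts, whereas type IV chains form the sheet-like network of the basement membranes around cardiomyocytes and vessels. The other classes decorate fibrils, form microfilaments or anchor cells, and chains commonly pass through hydroxylation, chaperoned folding, trimming of propeptides and enzymatic crosslinking before they bear load.

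The study asked how Hif1a haploinsufficiency and exposure to maternal diabetes remodel the heart, the extracellular matrix included. Wt or Hif1a+/- offspring came from FVB dams that were non-diabetic or had been made diabetic with streptozotocin, and the LV was taken at 12 weeks of age, with 3 samples in each of the 4 groups. The mutant allele was a global heterozygous deletion carried by the fathers, so every cell type of a Hif1a+/- heart had it, and the dams of all groups were Wt. The 12 libraries were 3′-seq libraries, whose reads come from the 3′ end of transcripts, and held between 16132442 and 39812939 counts.

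Hif1a, the gene that was targeted, had 894, 1253 and 1757 counts in non-diabetic Wt, 1039, 1741 and 1026 in diabetic Wt, 2294, 1398 and 1769 in the non-diabetic and 2746, 1472 and 1845 in the diabetic Hif1a+/- group. In CPM, the counts scaled to the library size after normalization by the trimmed mean of M values (TMM), the mean of non-diabetic Hif1a+/- was 85.7 ± 6.01 against 61.5 ± 8.96 in non-diabetic Wt (SD, n = 3), so the level was not lower in the heterozygotes. The extent of the deleted part is not given in the sources used here, so whether these 3′ reads bear on the allele cannot be told. The sample labels give the animals as female and the study design as male, and 11 of 12 libraries had more counts on 4 Y-linked genes than on Xist. The exception was diabetic Hif1a+/- replicate 72, with 3599 counts on Xist and 26 on the Y-linked genes, the only library with the pattern of a female. The class medians and the values it moved most are therefore also given without it, and a part of sex in its values was not tested. The markers of ventricular cardiomyocytes (Myl2, Myl3, Myh6, Tnnt2, Tnni3, Actc1) summed to between 71870 and 83830 CPM and those of atrial cells (Myl7, Myl4, Sln, Nppa) to between 25.2 and 70.8 CPM in the 12 samples.

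Collagen transcripts made up a small part of the ventricular library. The 44 genes took 0.264 ± 0.0468% of the counts in Wt from non-diabetic and 0.226 ± 0.0536% in Wt from diabetic pregnancies, and 0.269 ± 0.0218% and 0.298 ± 0.0740% in the corresponding Hif1a+/- groups (SD, n = 3). The lowest share was 0.186% in diabetic Wt replicate 50 and the highest 0.381% in diabetic Hif1a+/- replicate 72, without which the mean of its group was 0.257 ± 0.0253% (SD, n = 2). The ranges of the 4 groups overlapped. In a whole ventricle, fewer cells that make a collagen and less of its RNA per cell cannot be told apart.

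By counts the basement membrane genes were the largest class, with 46.8 ± 5.03% of the collagen counts over the 12 samples, ahead of the fibrillar genes with 31.3 ± 3.59% and the others with 22.0 ± 1.95% (SD, n = 12). Col4a1 and Col4a2, the chains of the ubiquitous type IV network, alone took 24.6% and 19.4% of all collagen counts. They were followed by Col3a1 (11.8%), which encodes type III collagen, by Col1a2 (7.38%) and Col1a1 (6.08%), the chains of type I collagen, by Col6a2 (5.39%), Col15a1 (5.38%) and Col6a1 (5.18%), and by Col5a1 (2.69%) and Col4a5 (2.24%). These 10 genes held 90.1% of the collagen counts.

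Divided by the exon length of each gene, mean CPM per kilobase was 86.4 for Col4a1, 76.6 for Col4a2, 31.9 for Col3a1, 31.4 for Col6a1, 24.4 for Col1a1, 22.4 for Col15a1, 17.2 for Col6a2 and 15.8 for Col1a2. Col1a1 thus stood above Col1a2 per length and below it in CPM. Reads of a 3′-seq library come from the end of a transcript whatever its length, so both scales are given. Among the 34 measured genes the mean CPM ran from 644.5 for Col4a1 down to 0.381 for Col17a1, a transmembrane collagen of hemidesmosomes, as seen in the plot of levels by gene.

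**Figure D1:**
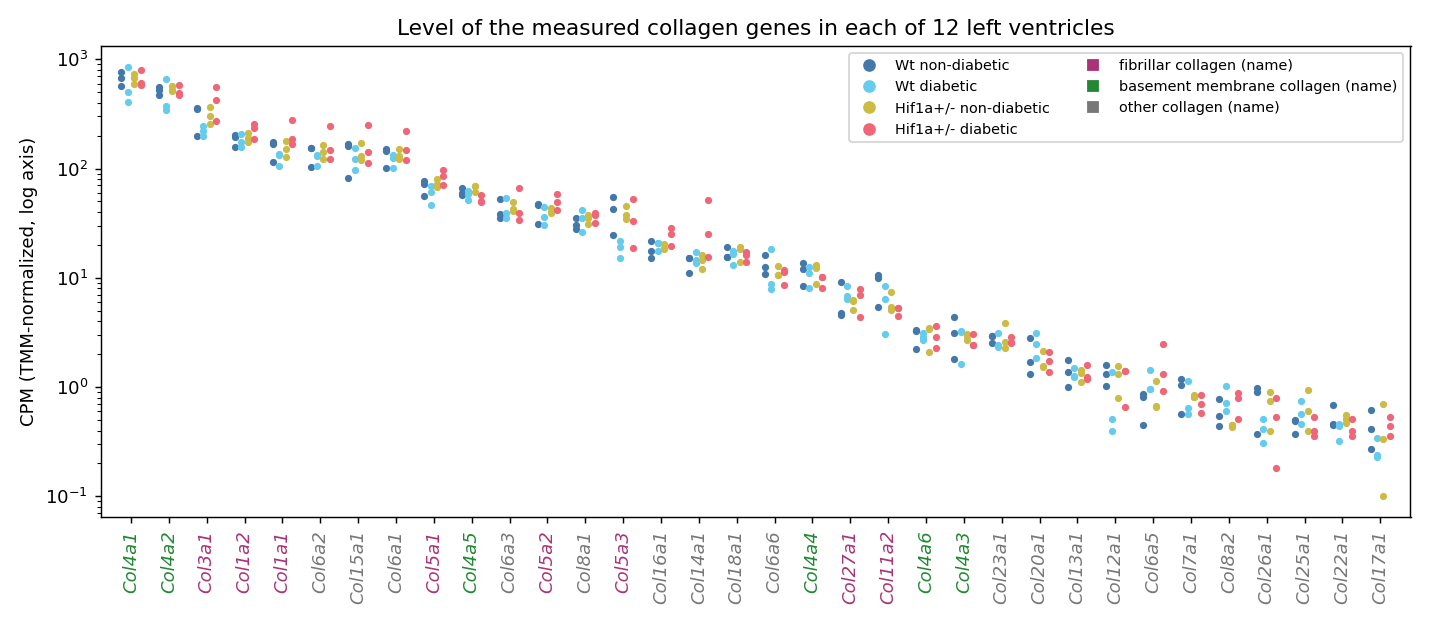
Level of each of the 34 measured collagen genes in the 12 LV samples, in TMM-normalized CPM on a log axis, with genes ordered by their mean and coloured by class. Points are single samples coloured by group; the points of the 4 groups lie on top of each other for most genes, and Col14a1 has 1 diabetic Hif1a+/- sample at 51.01 CPM well above the rest.

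The 10 genes that were not measured were Col2a1, Col11a1 and Col24a1 among the fibrillar genes, and Col6a4, Col9a1, Col9a2, Col9a3, Col10a1, Col19a1 and Col28a1 among the others. Several of them are chains of cartilage: type II, type IX, type X and type XI collagens. Col9a1 had 0 counts in all 12 samples, which allows at most 3 counts in 278861498, or 0.0108 CPM. Just under the limit, Col9a2, Col9a3 and Col28a1 had fewer than 10 counts in 10 samples, and just above it Col17a1 had fewer than 10 in 7 samples, Col26a1 in 6 and Col22a1 in 5. The markers of valve or cartilage cells summed to between 5.22 and 6.97 CPM, with Acan, Chad and Cnmd under 10 counts in some samples.

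No collagen gene passed edgeR's quasi-likelihood test at a Benjamini-Hochberg adjusted p of 0.1 in any of the 5 comparisons between groups, in the genotype by diabetes interaction or in the test of any difference among the 4 groups. The same was true of every other gene, since 0% of the 14706 genes tested were called. The smallest adjusted p of a collagen gene from edgeR was 0.275 (Col4a5) in diabetic against non-diabetic Hif1a+/-, 0.450 (Col14a1) in diabetic Hif1a+/- against non-diabetic Wt, 0.822 (Col1a1 and Col3a1) in diabetic Hif1a+/- against diabetic Wt and 0.9999 in both other comparisons. At an unadjusted p under 0.05, edgeR gave 1 collagen gene in diabetic against non-diabetic Wt (2.78% of all genes tested), 0 in non-diabetic Hif1a+/- against non-diabetic Wt (0.959%), 5 in diabetic Hif1a+/- against non-diabetic Wt (8.85%), 5 against non-diabetic Hif1a+/- (12%) and, compared with diabetic Wt, 8 (5.35%). With DESeq2, Col3a1 was the 1 collagen gene called, in diabetic Hif1a+/- against diabetic Wt, where 0.155% of the genes were called. DESeq2 called 0 collagens in the other comparisons, beside 0.0148% of all genes in diabetic against non-diabetic Wt, 0.00369% in non-diabetic Hif1a+/- against its Wt group, 0.453% in diabetic Hif1a+/- against non-diabetic Wt, 1.44% against non-diabetic Hif1a+/- and 0.76% for any difference. With limma-voom, Col14a1 and Col4a5 were called in diabetic against non-diabetic Hif1a+/-, where 6.37% of the genes were called, and 0 collagens in the others, where at most 0.0136% (against non-diabetic Wt) and 0.0068% (against diabetic Wt) were. When edgeR was run without the filter on low counts it called 1 collagen in diabetic against non-diabetic Wt (0.476% of all genes), 0 in non-diabetic Hif1a+/- against its Wt group (0.122%), 4 in diabetic Hif1a+/- against non-diabetic Wt (1.64%), 3 against non-diabetic Hif1a+/- (2.19%), 8 against diabetic Wt (0.812%), 4 in the interaction (0.288%) and 8 for any difference (2.54%). The comparisons share samples, so that the diabetic Hif1a+/- samples enter 3 of them and the non-diabetic Wt samples 3.

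By class, against non-diabetic Wt, the median log2 fold change of the 8 measured fibrillar genes was -0.26 when diabetic Wt was compared, -0.02 with non-diabetic Hif1a+/- and 0.26 with diabetic Hif1a+/-. That of the 6 basement membrane genes was -0.14, 0.01 and -0.12, and that of the 20 other genes was -0.09, 0.03 and 0.00. With at least 10 counts required in every sample, the last of these was 0.17. The median over all genes tested was 0.01, 0.00 and 0.00 in the same comparisons with the usual filter. Without replicate 72 the medians in diabetic Hif1a+/- against non-diabetic Wt were 0.16 for the fibrillar, -0.19 for the basement membrane and -0.05 for the other genes. The single genes behind these medians are shown in the plot of fold changes by class.

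**Figure D2:**
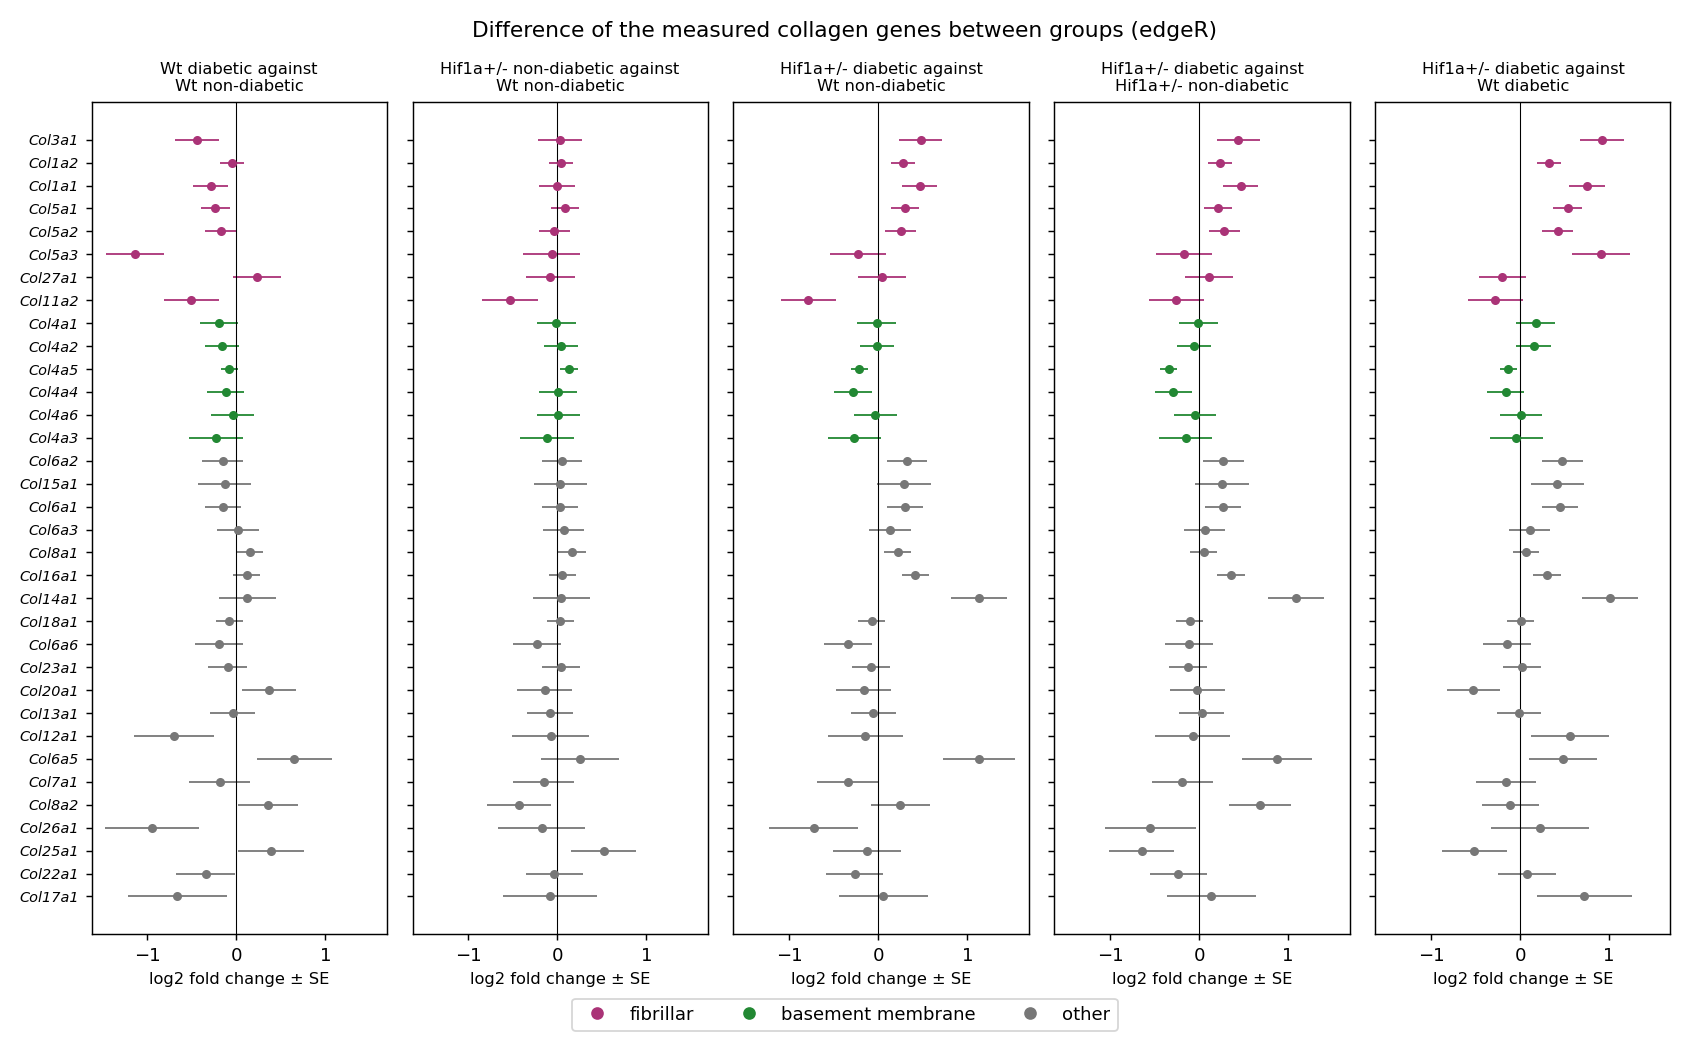
Log2 fold change (point) and its standard error (bar) from edgeR for the 34 measured collagen genes in 5 comparisons, with genes grouped by class and ordered by level within it. In diabetic Hif1a+/- against diabetic Wt, 6 of 8 fibrillar genes lie to the right of 0, with a median of 0.48, while the 6 basement membrane genes lie between -0.16 and 0.18.

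The fibrillar class had its widest difference between the groups exposed to maternal diabetes. In diabetic Hif1a+/- against diabetic Wt its median log2 fold change was 0.48, or 0.36 without replicate 72, with 6 of 8 genes above 0 beside 47.9% of all genes tested. In 3 of the 8 fibrillar genes, Col1a1, Col3a1 and Col5a1, every diabetic Hif1a+/- sample lay above every diabetic Wt sample. With Col17a1, named here after its values were seen (log2 fold change 0.72 ± 0.53), 4 of the 34 measured collagens lay above in this way and 0 below, where 4.32% of all genes tested lay above and 3.62% below. The fibrillar genes took 34.9 ± 2.56% of the collagen counts in diabetic Hif1a+/- and 29.1 ± 5.50% in diabetic Wt, beside 30.5 ± 2.02% in non-diabetic Wt and 30.6 ± 1.25% in non-diabetic Hif1a+/- (SD, n = 3). The diabetic Hif1a+/- samples, at 32.1 to 37.0%, lay above non-diabetic Hif1a+/-, at 29.3 to 31.8%, and overlapped both Wt groups.

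Col3a1, the type III chain (chromosome 1, 45311538 to 45349706, plus strand, GRCm38), was the most abundant fibrillar gene. Its CPM was 199, 349 and 357 in non-diabetic Wt, 198, 223 and 247 in diabetic Wt, 257, 303 and 367 in the non-diabetic and 275, 561 and 422 in the diabetic Hif1a+/- group. The 3 diabetic Hif1a+/- samples lay above the 3 diabetic Wt samples, the nearest being 275 and 247, and they overlapped both non-diabetic groups. The log2 fold change was 0.91 ± 0.25 (SE) against diabetic Wt, 0.47 ± 0.24 against non-diabetic Wt and 0.44 ± 0.24 against non-diabetic Hif1a+/-. Without replicate 72 these were 0.65, 0.21 and 0.19. In edgeR the adjusted p against diabetic Wt was 0.822, whereas DESeq2 gave 0.0821 and limma-voom 0.569.

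Type I collagen is the main component of cardiac fibrils. Its chain Col1a1 (chromosome 11, 94936224 to 94953042, plus strand) had 116, 167 and 174 CPM in non-diabetic Wt, 105, 133 and 137 in diabetic Wt, 127, 150 and 180 in the non-diabetic and 167, 276 and 188 in the diabetic Hif1a+/- group. As with Col3a1, the diabetic Hif1a+/- samples lay above diabetic Wt and overlapped the other groups, with replicate 72 at the top. The log2 fold change of Col1a1 in diabetic Hif1a+/- was 0.75 ± 0.20 against diabetic Wt (0.51 without replicate 72) and 0.46 ± 0.20 against non-diabetic Wt (0.22 without it). Its partner Col1a2 had 159, 205 and 196 CPM in non-diabetic Wt, 158, 175 and 208 in diabetic Wt, 175, 189 and 212 in the non-diabetic and 187, 256 and 236 in the diabetic Hif1a+/- group, and all 4 groups overlapped. Its log2 fold change against diabetic Wt was 0.33 ± 0.14, smaller than that of Col1a1.

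Type V collagen starts fibrils and limits their width. Col5a1 had 55.98, 77.4 and 72.5 CPM in non-diabetic Wt, 45.9, 60.6 and 68.7 in diabetic Wt, 67.4, 71.6 and 80.1 in the non-diabetic and 70.8, 96.6 and 86.1 in the diabetic Hif1a+/- group. Diabetic Hif1a+/- lay wholly above diabetic Wt and overlapped both non-diabetic groups. Its log2 fold change against diabetic Wt was 0.53 ± 0.16, or 0.43 without replicate 72. Col5a2 had 30.5, 44.7 and 35.8 CPM in diabetic Wt and 41.4, 58.2 and 49.9 in diabetic Hif1a+/-, and these overlapped.

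Col5a3, the third type V chain (chromosome 9, 20770050 to 20815067, minus strand), followed another order. It had 24.9, 42.3 and 55.1 CPM in non-diabetic Wt, 15.04, 21.6 and 19.1 in diabetic Wt, 34.4, 37.4 and 45.8 in the non-diabetic and 33.1, 52.7 and 18.8 in the diabetic Hif1a+/- group. The diabetic Wt samples were all below the non-diabetic Wt samples and below the non-diabetic Hif1a+/- samples. Against non-diabetic Wt the log2 fold change was -1.14 ± 0.33 in diabetic Wt, the farthest from 0 of any collagen in that comparison, with an edgeR adjusted p of 0.9999 and an unadjusted p of 0.00384. It was the 1 collagen gene wholly below non-diabetic Wt there, where 3.4% of all genes tested were, and Col6a5 was the 1 wholly above, where 2.14% were. Diabetic Hif1a+/- samples spanned nearly the whole range of the gene, from 18.8 to 52.7 CPM, the highest being replicate 72, so that the log2 fold change against diabetic Wt was 0.91 with it and 0.49 without it.

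Both remaining fibrillar genes were low. Col11a2, a chain best known from cartilage, had 9.96, 10.6 and 5.44 CPM in non-diabetic Wt, 6.46, 8.34 and 3.09 in diabetic Wt, 5.10, 5.41 and 7.39 in the non-diabetic and 5.24, 5.24 and 4.46 in the diabetic Hif1a+/- group. The diabetic Hif1a+/- samples lay below non-diabetic Wt, the nearest samples being 5.24 and 5.44 CPM, and the log2 fold change was -0.79 ± 0.31 with an edgeR adjusted p of 0.525. Col27a1 was between 4.34 and 9.09 CPM in all samples and overlapped in every comparison. In all, diabetic Hif1a+/- against non-diabetic Wt had 2 collagen genes wholly above and 1 wholly below, where 7.47% and 7.11% of all genes tested were.

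**Figure D3:**
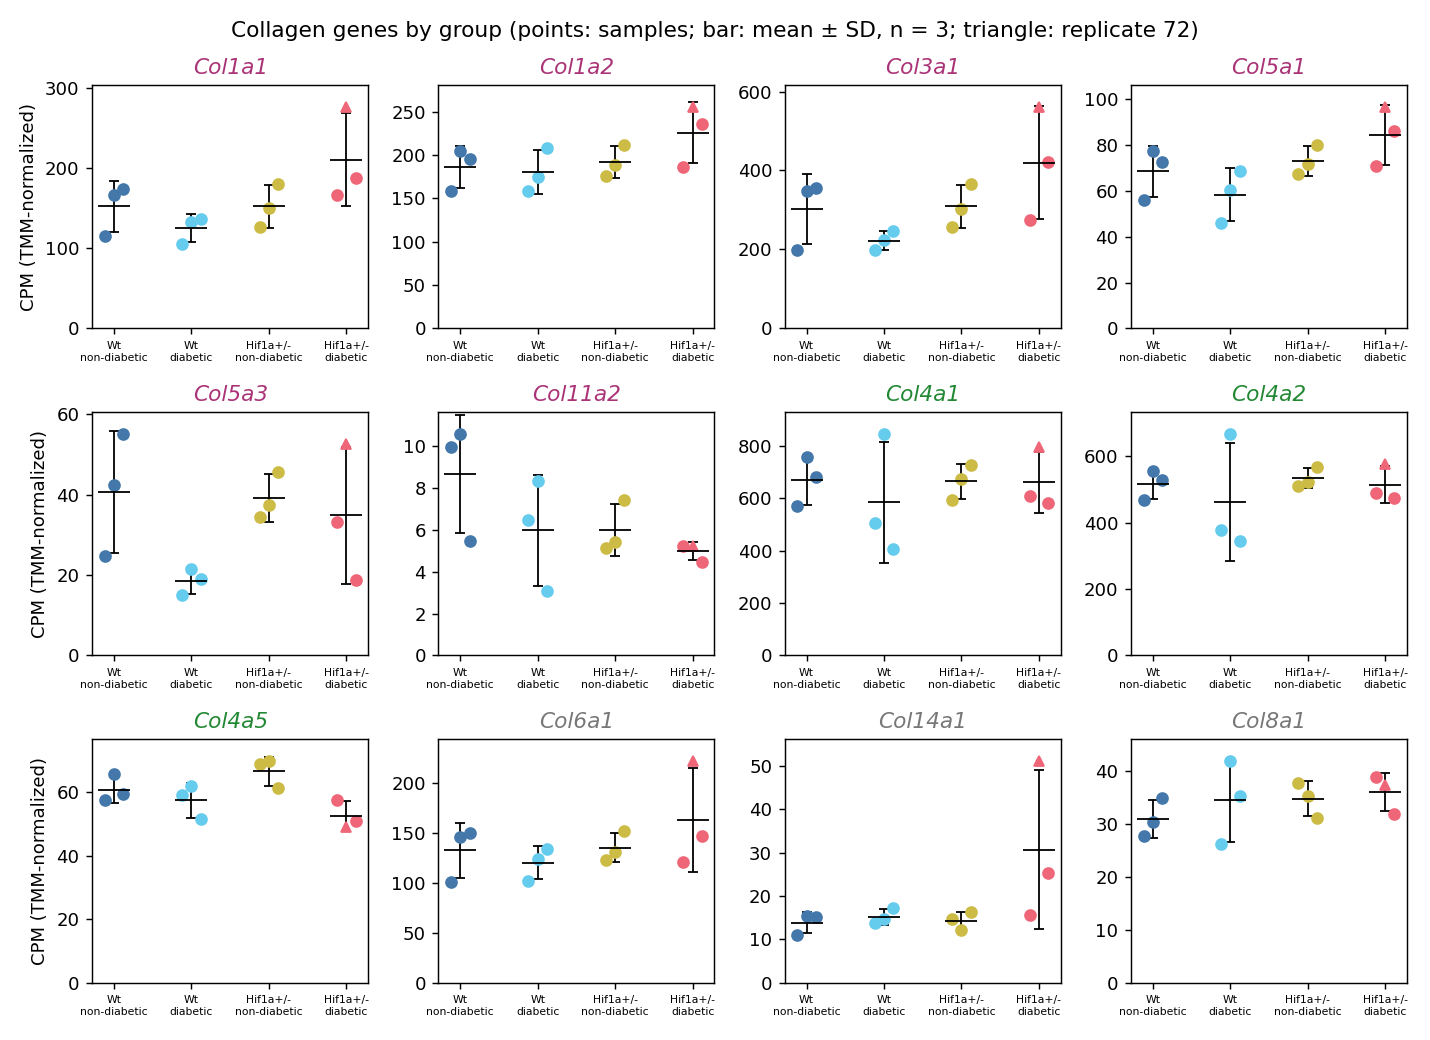
TMM-normalized CPM of 12 collagen genes in each sample, by group, with the mean and SD of 3 samples as bars and replicate 72 of diabetic Hif1a+/- as a triangle. Replicate 72 is the highest of the 12 samples for Col1a1, Col1a2, Col3a1, Col5a1, Col6a1 and Col14a1, while Col4a1 and Col4a2 reach their highest value in a diabetic Wt sample.

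The promoters of Col1a2 and Col3a1 are shown because the 2 genes belong to the same fibrils yet differ in base composition. The 250 bases before the RefSeq start (GRCm38.p6, plus strand, chr6:4505368-4505617 and chr1:45311288-45311537) have a GC content of 62% in Col1a2 and 35.2% in Col3a1. Capitals mark the motifs ACGTG and GCGTG, the core bound by hypoxia-inducible factors, GGGCGG, the GC box, and TATAA, each read on both strands. Matches on both strands or of different motifs may overlap.
Col1a2: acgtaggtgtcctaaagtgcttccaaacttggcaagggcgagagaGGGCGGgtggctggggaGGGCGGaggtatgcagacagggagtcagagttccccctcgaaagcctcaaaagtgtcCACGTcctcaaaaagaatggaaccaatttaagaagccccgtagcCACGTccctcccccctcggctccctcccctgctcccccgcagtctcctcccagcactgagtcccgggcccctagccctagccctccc
Col3a1: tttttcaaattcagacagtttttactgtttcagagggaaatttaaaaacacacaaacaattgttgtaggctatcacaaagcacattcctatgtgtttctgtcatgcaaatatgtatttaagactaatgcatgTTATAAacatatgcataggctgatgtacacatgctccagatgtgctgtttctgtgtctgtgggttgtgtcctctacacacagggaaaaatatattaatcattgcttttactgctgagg
Col1a2 held 2 GGGCGG and 2 ACGTG matches, the latter on the other strand as CACGT, and Col3a1 held TATAA on both strands at a single place. Of the 34 measured collagens 27 had an entry in the RefSeq table. Among them GGGCGG was present in 18 (66.7%, beside 35.4% of all 27025 genes of the table), ACGTG in 5 (18.5%, beside 18.5%), GCGTG in 8 (29.6%, beside 30.9%) and TATAA in 5 (18.5%, beside 25.8%). A match describes the letters and does not show a bound site.

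The basement membrane genes differed little between groups. The 6 genes had log2 fold changes between -0.23 and -0.04 in diabetic against non-diabetic Wt, between -0.12 and 0.13 in non-diabetic Hif1a+/-, and between -0.28 and -0.01 in diabetic Hif1a+/- against non-diabetic Wt. The class took 42.6 ± 4.55% of the collagen counts in diabetic Hif1a+/-, beside 48.1 ± 1.45% in non-diabetic Hif1a+/-, and 48.5 ± 3.32% and 48.0 ± 8.31% in the Wt groups from non-diabetic and diabetic pregnancies (SD, n = 3), and all of these ranges overlapped.

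Col4a1 (chromosome 8, 11198423 to 11312826, minus strand) had 569, 758 and 681 CPM in non-diabetic Wt, 505, 843 and 405 in diabetic Wt, 594, 672 and 727 in the non-diabetic and 606, 794 and 582 in the diabetic Hif1a+/- group. Col4a2 (chromosome 8, 11312805 to 11449287, plus strand) had 468, 557 and 527, then 377, 666 and 345, then 510, 524 and 567, and then 488, 578 and 475 CPM in the same order. For both genes the diabetic Wt group held the lowest and the highest of the 12 samples and so overlapped every other group. The log2 fold change in diabetic Hif1a+/- against non-diabetic Wt was -0.02 ± 0.22 for Col4a1 and -0.01 ± 0.19 for Col4a2.

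The pair lies head to head, and their first exons overlap by 22 bases at chr8:11312805-11312826, shown here on the plus strand because a single short stretch starts both transcripts.
Col4a1 and Col4a2 overlap: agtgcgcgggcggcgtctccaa
Across the 12 samples the log2 ratio of Col4a1 to Col4a2 had an SD of 0.08, while the log2 CPM of the single genes had SDs of 0.30 and 0.26.

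The minor type IV chains are best known from the kidney. Col4a5, an X-linked chain, had 57.5, 65.7 and 59.4 CPM in non-diabetic Wt, 59.1, 62.2 and 51.5 in diabetic Wt, 68.9, 69.8 and 61.4 in the non-diabetic and 57.8, 48.98 and 50.9 in the diabetic Hif1a+/- group. The diabetic Hif1a+/- samples lay wholly below non-diabetic Hif1a+/-, with a log2 fold change of -0.34 ± 0.10 (-0.29 without replicate 72). The edgeR adjusted p was 0.275, the DESeq2 one 0.122 and the limma-voom one 0.0510. In that comparison 1 collagen gene lay wholly above and 1 wholly below, where 11.2% and 13.2% of all genes tested did. The gene above was Col8a2, a network collagen named after its values were seen, with a log2 fold change of 0.68 ± 0.35.

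Col4a4 had 8.47, 12.0 and 13.7 CPM in non-diabetic Wt, 8.03, 11.03 and 12.5 in diabetic Wt, 13.2, 8.79 and 12.3 in the non-diabetic and 8.01, 10.1 and 10.2 in the diabetic Hif1a+/- group, with overlap throughout. Col4a3 and the X-linked Col4a6 had a mean of 2.83 and 2.93 CPM, and both overlapped in every comparison of the 12 samples. Without replicate 72, the samples of diabetic Hif1a+/- lay wholly below non-diabetic Hif1a+/- for 5 of the 34 collagens, Col4a2, Col4a3, Col4a5, Col5a3 and Col6a3, where 17.7% of all genes tested did.

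Among the other collagens, type VI was the most abundant. Col6a1 and Col6a2 encode the short chains of its beaded microfilaments. Col6a1 had 101, 146 and 150 CPM in non-diabetic Wt, 102, 124 and 134 in diabetic Wt, 123, 131 and 152 in the non-diabetic and 121, 222 and 147 in the diabetic Hif1a+/- group. Col6a2 had 102, 155 and 154, then 105, 134 and 130, then 122, 141 and 163, and then 121, 246 and 147 CPM. Both genes overlapped in every comparison, and replicate 72 was the single sample beyond the range of the others. Their log2 fold changes in diabetic Hif1a+/- against non-diabetic Wt, 0.30 ± 0.20 and 0.32 ± 0.23, came to 0.02 and -0.03 without it.

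Col6a3, the long type VI chain, had 35.00, 53.1 and 38.1 CPM in non-diabetic Wt, 35.3, 53.4 and 39.4 in diabetic Wt, 42.96, 40.6 and 49.1 in the non-diabetic and 33.7, 65.97 and 38.96 in the diabetic Hif1a+/- group. It was also highest in replicate 72, and the groups overlapped. The rare chain Col6a5 had 0.872, 0.819 and 0.450 CPM in non-diabetic Wt, 0.969, 0.954 and 1.43 in diabetic Wt, 1.13, 0.676 and 0.654 in the non-diabetic and 0.925, 1.32 and 2.47 in the diabetic Hif1a+/- group. Both diabetic groups lay wholly above non-diabetic Wt, and the log2 fold changes were 0.65 ± 0.42 in diabetic Wt and 1.13 ± 0.41 in diabetic Hif1a+/- (edgeR adjusted p 0.9999 and 0.502). These values rest on between 11 and 56 counts per sample. Without diabetic Hif1a+/- replicate 77, the sample at 2.47 CPM, the second value was 0.66, and without non-diabetic Wt replicate 89 the first was 0.38.

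Col14a1, a collagen that coats the surface of fibrils (chromosome 15, 55307750 to 55520803, plus strand), had 1 diabetic Hif1a+/- sample far above the rest. It had 11.1, 15.3 and 15.2 CPM in non-diabetic Wt, 13.7, 14.6 and 17.2 in diabetic Wt, 14.7, 12.1 and 16.2 in the non-diabetic and 15.6, 51.01 and 25.2 in the diabetic Hif1a+/- group. The 9 samples of the other groups lay between 11.1 and 17.2, 2 of the diabetic Hif1a+/- samples were above that range, and the third lay above the non-diabetic Wt samples but inside the range of both other groups. The log2 fold change in diabetic Hif1a+/- was 1.13 ± 0.32 against non-diabetic Wt, 1.01 ± 0.31 against diabetic Wt and 1.09 ± 0.32 against non-diabetic Hif1a+/-, and without replicate 72 it was 0.55, 0.43 and 0.51. The edgeR adjusted p was 0.450, 0.862 and 0.283, and limma-voom gave 0.0820 for the comparison with non-diabetic Hif1a+/-.

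Col16a1, a fibril-associated collagen as well, had 15.3, 17.7 and 21.9 CPM in non-diabetic Wt, 17.6, 21.01 and 20.9 in diabetic Wt, 20.2, 18.8 and 18.3 in the non-diabetic and 19.6, 28.8 and 25.3 in the diabetic Hif1a+/- group. The log2 fold change in diabetic Hif1a+/- against non-diabetic Wt was 0.42 ± 0.15 (0.29 without replicate 72). The groups overlapped. The other 3 measured genes of this sub-class, Col12a1, Col20a1 and Col22a1, had log2 fold changes of -0.15, -0.16 and -0.27 in the same comparison and of 0.12, -0.02 and -0.22 without replicate 72. For Col20a1 the value was 0.23 without non-diabetic Wt replicate 42.

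Col15a1, whose product joins basement membranes to nearby fibrils, had 81.6, 162 and 167 CPM in non-diabetic Wt, 97.2, 155 and 123 in diabetic Wt, 119, 131 and 170 in the non-diabetic and 112, 249 and 142 in the diabetic Hif1a+/- group. Its relative Col18a1, the source of endostatin, was between 13.1 and 19.0 CPM. Col8a1, a network collagen of vessel walls, had 27.8, 30.5 and 34.9 CPM in non-diabetic Wt, 26.2, 41.9 and 35.4 in diabetic Wt, 37.8, 35.4 and 31.2 in the non-diabetic and 38.9, 37.4 and 32.02 in the diabetic Hif1a+/- group. These 3 genes overlapped in every comparison.

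Transmembrane and anchoring collagens were rare in the ventricle. Col23a1, the most abundant transmembrane member, had 2.93, 2.96 and 2.53 CPM in non-diabetic Wt, 2.45, 2.32 and 3.14 in diabetic Wt, 2.61, 3.83 and 2.26 in the non-diabetic and 2.85, 2.51 and 2.56 in the diabetic Hif1a+/- group. Col7a1, the anchoring fibril collagen, had 1.18, 1.05 and 0.572 CPM, then 0.646, 1.12 and 0.571, then 0.818, 0.845 and 0.805, and then 0.848, 0.704 and 0.574 CPM in the same order. Both genes overlapped in every comparison. The transmembrane gene Col25a1 had 0.374, 0.500 and 0.490 CPM in non-diabetic Wt, 0.461, 0.749 and 0.571 in diabetic Wt, 0.935, 0.394 and 0.603 in the non-diabetic and 0.360, 0.528 and 0.398 in the diabetic Hif1a+/- group. Its log2 fold change in non-diabetic Hif1a+/- against non-diabetic Wt was 0.52 ± 0.37, and 0.12 without replicate 14, the sample at 0.935 CPM. Col26a1 had 0.374, 0.909 and 0.981 CPM in non-diabetic Wt, 0.415, 0.307 and 0.514 in diabetic Wt, 0.740, 0.394 and 0.905 in the non-diabetic and 0.180, 0.792 and 0.530 in the diabetic Hif1a+/- group. Its log2 fold change in diabetic against non-diabetic Wt was -0.95 ± 0.53, and both genes had overlapping groups and an edgeR adjusted p of 0.9999. In non-diabetic Hif1a+/- against non-diabetic Wt no collagen gene lay wholly above or below, where 2.55% and 2.26% of all genes tested did. The value farthest from 0 there was that of Col11a2, -0.53 ± 0.31.

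Replicate 72 of diabetic Hif1a+/- was the highest of the 12 samples in 12 of the 34 measured collagens, 5 fibrillar, 1 basement membrane and 6 others, beside 9.67% of all genes tested. Diabetic Wt replicate 50 was the lowest in 9 of 34, of which 6 were fibrillar, beside 10.6% of all genes tested. The plot with and without replicate 72 shows that most collagens had a lower log2 fold change when it was left out. Leaving out a sample of the higher group cannot undo a separation, so the 3 of 8 fibrillar genes wholly above diabetic Wt had to stay so. Without replicate 72, 5 of 34 collagens lay wholly above diabetic Wt and 2 below, where 7.47% and 6.64% of all genes tested did.

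**Figure D4:**
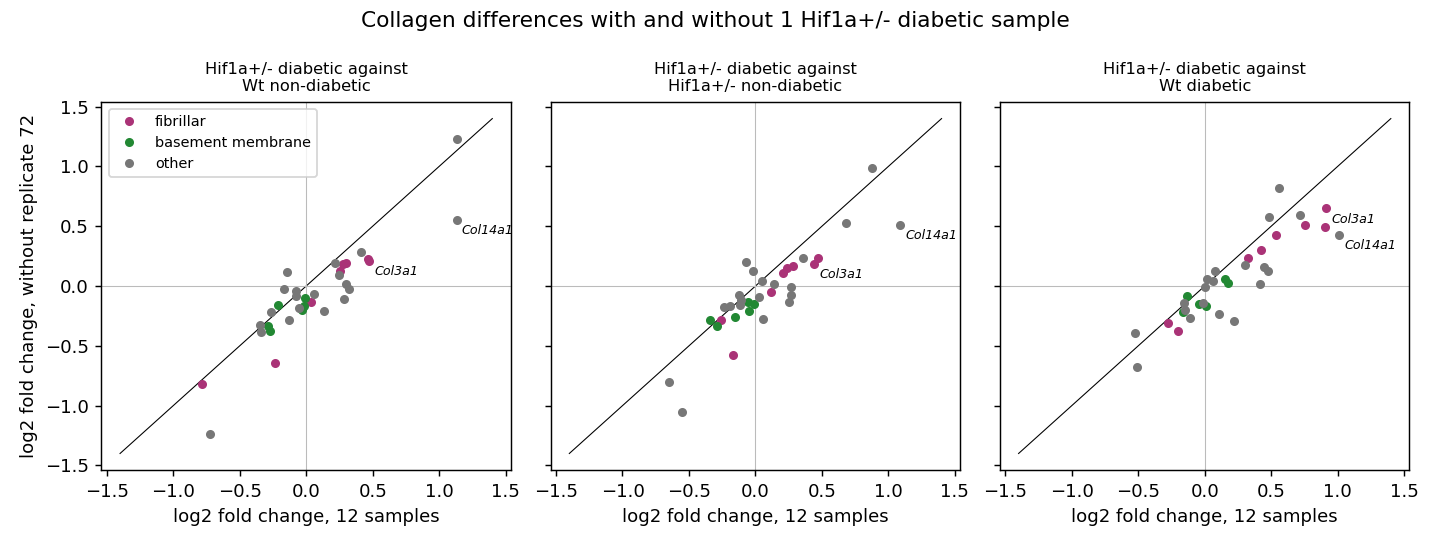
Log2 fold change of the 34 measured collagen genes from all 12 samples (x axis) and without diabetic Hif1a+/- replicate 72 (y axis) in the 3 comparisons that use its group, coloured by class, with the line of equality. Most points lie below the line, and Col14a1 goes from 1.13 to 0.55 against non-diabetic Wt.

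The genotype by diabetes interaction compares the difference between diabetic and non-diabetic pregnancy in Hif1a+/- with that in Wt. Its median was 0.45 for the fibrillar genes (0.34 without replicate 72), 0.04 for the basement membrane genes (-0.10 without it) and 0.17 for the others (0.02 without it). Of the fibrillar genes 7 of 8 were above 0, with 0.88 ± 0.35 for Col3a1 and 0.76 ± 0.28 for Col1a1. No gene passed edgeR's test, the smallest adjusted p among the collagens being 0.998, and the 2 collagens at an unadjusted p under 0.05 compare with 2.52% of all genes tested.

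Chains that share a trimer kept a nearly fixed ratio in some pairs and not in others. The SD of the log2 ratio over the 12 samples was 0.06 for Col6a1 to Col6a2, 0.14 for Col5a1 to Col5a2, 0.20 for Col1a1 to Col1a2 and 0.21 for Col6a1 to Col6a3, all on log2(CPM + 1). For Col8a1 to Col8a2 it was 0.23 on that scale and 0.44 without the pseudocount, with Col8a2 at a mean of 0.635 CPM. The pairs that do not share a trimer had 0.14 for Col1a1 to Col3a1 and 0.34 for Col1a1 to Col4a1. The log2 ratio of Col1a1 to Col1a2 averaged -0.31 ± 0.14 for non-diabetic and -0.53 ± 0.12 for diabetic Wt, then -0.34 ± 0.11 for non-diabetic and -0.13 ± 0.22 for diabetic Hif1a+/- (SD, n = 3). Its diabetic Hif1a+/- values started at -0.33, above the highest diabetic Wt value of -0.40.

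The genes that act on collagen chains were followed as 47 genes, of which 44 were tested and 0 passed edgeR's test in any comparison. At an unadjusted edgeR p under 0.05, diabetic Hif1a+/- against non-diabetic Wt had 13 of the 44, beside 8.85% of all genes tested. Against non-diabetic Hif1a+/- there were 12 (12% of all genes tested), and relative to diabetic Wt 8 (5.35%). Both comparisons that lack diabetic Hif1a+/- samples had 0, beside 2.78% for the Wt groups and 0.959% for the non-diabetic ones. Between the Hif1a+/- groups, the number called was 3 with DESeq2 (1.44% of all genes), with limma-voom 7 (6.37%) and with edgeR without the low-count filter 4 (2.19%). Against diabetic Wt these were 1 (0.155%), 0 (0.0068%) and 4 (0.812%), and against non-diabetic Wt 0 (0.453%), 0 (0.0136%) and 4 (1.64%). Among 14 genes of propeptide removal and crosslinking, 10 had a log2 fold change above 0 in diabetic Hif1a+/- against non-diabetic Wt, with a median of 0.30 (0.30 without replicate 72), and 13 of 14 against diabetic Wt, with a median of 0.26. Of all genes tested, 49.2% and 47.9% were above 0 in these comparisons. In 6 of the 14 genes the diabetic Hif1a+/- samples lay wholly above non-diabetic Wt, as did 7.47% of all genes tested. The 14 tested genes of modification had a median of 0.06, the 8 of chaperoning and export -0.02 and the 8 tested receptors 0.08 in the comparison with non-diabetic Wt.

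Pcolce, which speeds the removal of the C-propeptide from fibrillar procollagens, had 86.1, 76.3 and 97.6 CPM in non-diabetic Wt, 78.6, 79.8 and 93.9 in diabetic Wt, 76.9, 80.4 and 86.6 in the non-diabetic and 98.4, 121 and 114 in the diabetic Hif1a+/- group. The diabetic Hif1a+/- samples lay above all 9 others. The log2 fold change was 0.45 ± 0.11 against non-diabetic Hif1a+/-, with an edgeR adjusted p of 0.216 and a DESeq2 one of 0.0332. Its relative Pcolce2 had 18.1, 19.9 and 23.4 CPM in non-diabetic Wt and 27.4, 28.7 and 37.2 in diabetic Hif1a+/-, a log2 fold change of 0.60 ± 0.16 that was 0.65 without replicate 72. It had 23.2, 22.4 and 22.7 CPM in non-diabetic Hif1a+/-, below the diabetic group. Diabetic Wt, at 19.3, 20.7 and 30.2 CPM, overlapped diabetic Hif1a+/-.

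Loxl2, an enzyme that crosslinks collagens, had 15.4, 24.4 and 19.7 CPM in non-diabetic Wt and 14.8, 21.9 and 18.5 in diabetic Wt. It had 23.25, 22.25 and 25.69 CPM in the non-diabetic and 25.45, 31.3 and 33.6 in the diabetic Hif1a+/- group. The diabetic Hif1a+/- samples lay above both Wt groups and overlapped non-diabetic Hif1a+/-. The log2 fold change against diabetic Wt was 0.70 ± 0.17, with an edgeR adjusted p of 0.797 and a DESeq2 one of 0.0711. Its relative Loxl3 had a log2 fold change of 0.38 ± 0.15 against non-diabetic Wt and, unlike Loxl2, lay wholly above all 3 other groups in diabetic Hif1a+/-. Lysyl hydroxylase Plod3 had 55.07, 55.05 and 55.13 CPM in the diabetic Hif1a+/- samples against 46.0, 45.8 and 45.4 in non-diabetic Wt, and Plod2 had 35.6, 39.3 and 36.1 against 52.2, 45.1 and 40.6. In diabetic Wt, Plod3 had 46.3, 55.00 and 46.5 CPM, the highest nearly at the diabetic Hif1a+/- level. Plod2 had 43.1, 40.1 and 37.9 CPM there and overlapped diabetic Hif1a+/-. In non-diabetic Hif1a+/- Plod3 had 43.98, 44.5 and 46.6 and Plod2 49.7, 43.1 and 45.5 CPM.

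The remaining named genes were modifying enzymes, folding and export factors and receptors. In diabetic Hif1a+/- against non-diabetic Wt the log2 fold change was 0.23 ± 0.09 for P4hb, the beta subunit of prolyl 4-hydroxylase, 0.25 ± 0.10 for Ppib, a prolyl isomerase, 0.18 ± 0.12 for Fkbp14, a folding factor, -0.17 ± 0.10 for Sec23a, a coat protein of export vesicles, and -0.37 ± 0.23 for Creb3l1, a regulator of collagen secretion (-0.52 without replicate 72). Among receptors it was 0.32 ± 0.12 for Mrc2, which takes up collagen fragments, 1.25 ± 0.54 for Lair1, an inhibitory receptor of immune cells, -0.60 ± 0.36 for Itga10 and -0.21 ± 0.17 for Itga1. In this comparison the edgeR adjusted p of each of these genes was 0.502 or more. Against non-diabetic Hif1a+/- it was 0.334 for P4hb and 0.286 for Ppib, and the smallest of a receptor was 0.263. There DESeq2 called Mrc2, where it called 1.44% of all genes. With limma-voom Mrc2, Lair1 and Ppib were called (6.37%), and with edgeR without the low-count filter Mrc2 and Lair1 (2.19%).

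Marker genes of other cell populations of the heart were summed beside these values. The adventitial fibroblast markers Pi16, Cd248, Mfap5 and Clec3b summed to between 271 and 494 CPM in diabetic Hif1a+/-, against 134 to 175 in non-diabetic Wt, 138 to 185 in diabetic Wt and 145 to 162 in non-diabetic Hif1a+/-. All 4 are among the genes the study listed as upregulated from these same libraries, so their values are no independent read-out of a cell type. They lay wholly above each other group, where 7.47% of all genes tested did so relative to non-diabetic Wt, 11.2% relative to non-diabetic Hif1a+/- and 4.32% relative to diabetic Wt. Leaving out replicate 72 cannot undo such a separation, and the shares of all genes tested were then 11.8%, 15.4% and 7.47%. This replicate had the lowest marker sum of its group, 271 CPM, and the highest collagen share. Single markers differed: replicate 72 was the lowest of its group for Pi16 and Mfap5, and replicate 66 for Cd248 and Clec3b. The fibroblast markers without collagens (Pdgfra, Tcf21, Dcn, Gsn, Dpt, Lum) summed to between 2783 and 3667 CPM in diabetic Hif1a+/-, replicate 72 being the highest, against 2489 to 3285 in non-diabetic Wt, 2808 to 4326 in diabetic Wt and 2514 to 2896 in non-diabetic Hif1a+/-. Gsn alone had a mean of 1968 CPM. All 6 had a log2 fold change above 0 against non-diabetic Wt (median 0.255, or 0.10 without replicate 72) and against non-diabetic Hif1a+/- (0.308, or 0.169). Against diabetic Wt 4 of 6 did. Of all genes tested, 49.2%, 49% and 47.9% did.

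The macrophage markers (Adgre1, Csf1r, C1qa, Cd68, Mrc1) summed to between 203 and 321 CPM in diabetic Hif1a+/-, against 134 to 195 in non-diabetic Wt, 146 to 238 in diabetic Wt and 104 to 162 in non-diabetic Hif1a+/-. The sums thus overlapped diabetic Wt. Of the 5 genes, 5 lay wholly above non-diabetic Hif1a+/- (11.2% of all genes tested), 4 above non-diabetic Wt (7.47%) and 1 above diabetic Wt (4.32%). C1qa and Mrc1 are also on the study's list of upregulated genes. The myofibroblast, endothelial and mural lists overlapped between diabetic Hif1a+/- and each other group in their sums, with 227 to 305, 874 to 923 and 741 to 895 CPM in that group. A sum follows its most abundant genes, such as Rgs5 in the mural list, with a mean of 627 CPM. Gene by gene, 2 of 6 mural markers (Rgs5 and Myh11) and 1 of 6 endothelial ones (Cdh5) lay wholly below non-diabetic Hif1a+/-, where 13.2% of all genes tested did. None lay wholly above. Myh11, at 15.5 to 17.6 CPM, also lay wholly below diabetic Wt, where 3.62% of all genes did, and overlapped non-diabetic Wt. The epicardial list summed to at most 16.8 CPM in any sample, with Msln, Upk3b, Lrrn4 and Krt19 under 10 counts in some, and the Schwann cell list to at most 12.7 CPM. The part of these cell types in the collagen values was not tested.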

How the data were processed

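The RNA of 12 LV samples was sequenced as 3′-seq libraries. The authors trimmed the reads with Trimmomatic, aligned them to GRCm38 with STAR 2.5.2b and counted them per GENCODE M8 gene with HTSeq, and deposited whole-number counts per gene and sample. The deposited files of normalized counts were not used. The 5 tally lines of each file were left out of library sizes, and 12.37 to 17.02% of the reads were not uniquely aligned. Symbols and coordinates came from GENCODE M21 (GRCm38), and 46488 of 46983 genes had one. Whether counting used strand is not given in the sources used here, and 13 of the 44 collagen genes share exon bases with another gene, at most 5.65% of the exon bases of a measured one.

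Counts were tested with edgeR 4.0.16 (TMM normalization, filterByExpr by group, quasi-likelihood test, 12 samples in 1 fit with 8 residual degrees of freedom, Benjamini-Hochberg adjusted p under 0.1 over all 14706 genes). The standard error is the log2 fold change divided by the square root of F. DESeq2 1.42.0, limma 3.58.1 voom with sample weights, a robust fit, DESeq2 size factors, other count filters, an adjusted p under 0.05, fits of only the groups compared and leaving out each sample were alternatives, run in R 4.3.3. Ratios used log2(CPM + 1). The scripts were tested on simulated data. Samples were grouped by genotype and pregnancy as labelled. P-values set a difference against the spread between samples, and the limit given for a gene at 0 counts covers counting error only.

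Values per sample are given for the 4 most abundant members of each class, for the most abundant of each sub-class and for the 3 members with the smallest edgeR p in each comparison, and pathway genes, with levels or fold changes, were named by the 3 smallest p of each list in both comparisons of diabetic Hif1a+/- with a non-diabetic group. Members and lists were chosen with earlier results of these data known. Promoters came from the RefSeq table of GRCm38.p6, which held 35 of the 44 collagens.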

Additional observations from a re-analysis of the deposited data

How the results depend on the processing

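With edgeR and the count filter 0 collagen genes were called in each of the 7 tests, and leaving out each sample in turn gave 0 to 0. With DESeq2, 1 was called in diabetic Hif1a+/- against diabetic Wt, and with limma-voom 2 in diabetic against non-diabetic Hif1a+/-. Without the filter on low counts edgeR called 1 in diabetic against non-diabetic Wt, 4 in diabetic Hif1a+/- against non-diabetic Wt, 3 against non-diabetic Hif1a+/-, 8 against diabetic Wt, 4 in the interaction and 8 in the test of any difference. Those fits called between 33 and 689 of 27093 genes, and the cause was not tested. The main fit called 0 genes, so a log2 fold change of a named gene could gain a call but not lose one. Under other settings 31 of 288 values were called and 257 were not, and no called value had changed sign. Without 1 sample all 504 values stayed uncalled. As with the counts of 0 above, this says little where the main fit calls none. Size and sign did depend on single samples. Without replicate 72, Col6a2 in diabetic Hif1a+/- against non-diabetic Wt went from 0.32 to -0.03. Of the class medians 1 of 123 moved, that of the other collagens in diabetic Hif1a+/- against non-diabetic Wt, to 0.174 with 10 counts required in every sample. Without 1 sample 5 of 216 moved: the basement membrane median of non-diabetic Hif1a+/- against non-diabetic Wt to -0.133 without non-diabetic Wt replicate 25, that of the interaction to -0.166, -0.123 and -0.101 without non-diabetic Wt 89, diabetic Wt 50 and diabetic Hif1a+/- 72, and the interaction median of the others to 0.321 without diabetic Wt 80. Not every change of sign was counted as moved. Without replicate 72 the median of the other collagens went from 0.041 to -0.075 in diabetic against non-diabetic Hif1a+/-. In diabetic Hif1a+/- against non-diabetic Wt it went from 0.002 to -0.054. The SD of the Col8a1 to Col8a2 ratio was 0.436 without a pseudocount. Replicate numbers come from the sample titles and serve as names only. The litter of each animal is not in the sample table used here, so littermates could not be paired and litter could not enter the fit. The biological coefficient of variation was 13.7% with 3 samples in each group.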
